A study of Schizosaccharomyces pombe with 8 samples.

Results

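The genes described here encode 10 enzymes of glycolysis and of the fermentation that follows it in the fission yeast Schizosaccharomyces pombe. They were chosen as rows of a list of Pac1-bound regions that carry the names fba1, tpi1, tdh1, pgk1, gpm1, eno101, pyk1, pdc101, adh1 or atd1. All 10 were found, among 167 systematic gene names at 88 peaks. Of these, 9 were listed under the symbol, and pdc101 only under its systematic name SPAC1F8.07c, which the RefSeq annotation pairs with that symbol. As background, 95 of 5113 protein-coding genes of the RefSeq annotation had a row in the list, or 1.86%. The genes were selected on being listed, which rests on the authors' peak calls and their combined p-values, so their presence was not tested.

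Pac1 is an RNase III endonuclease, a nuclear enzyme that cuts double-stranded RNA such as the stem of a hairpin. In ChIP-seq, DNA bound by a protein is recovered with it and sequenced, and 8 such libraries make up the series. The list rests on 2 immunoprecipitates of Pac1-TAP and their 2 inputs. The other 4 libraries came from a control (CTL) and a Pac1 anchor-away (Pac1-AA) strain, both given rapamycin, with RNA polymerase II as the target or as input, and the list holds no value for them, so they were not analysed here.

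The Pac1-TAP immunoprecipitates and inputs came from 1 strain of mating type h+ with the alleles ade6-M216 and leu1-32, which also carried ura4-D18 and his3-D1 and the tagged allele Pac1-TAP-natMX6. It was grown in EMM minimal medium at 30 °C without rapamycin. All 4 libraries therefore carried the tagged protein, expressed from its own locus, and the reference of each immunoprecipitate was its input. No untagged strain was among the samples used. The list combined both replicates into 1 p-value and 1 pair of bounds for each peak, so from it no value per library, no depth, no height and no replicate error can be given. Coverage tracks of these libraries were not used here. Duplicate reads were kept by the authors. The paper reports no significant change in the peak calls without this option, except that a peak in the rDNA repeats was lost. ChIP also has no strand, so a peak over a gene cannot be told apart from a peak over an RNA gene on the other strand of the same DNA.

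Glycolysis splits glucose into pyruvate in an upper phase that spends ATP and a lower phase that yields ATP and NADH. In fermenting yeast, pyruvate decarboxylase turns pyruvate into acetaldehyde, and alcohol dehydrogenase reduces acetaldehyde to ethanol, which restores the NAD+ that the lower phase uses. Aldehyde dehydrogenase can oxidise acetaldehyde to acetate instead. The lower-phase enzymes are among the most abundant proteins of a yeast cell growing on glucose.

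Every step from the aldolase down to pyruvate kinase had a listed gene, and no step above the aldolase had one. The upper steps use hexokinase (hxk1, hxk2), glucose-6-phosphate isomerase (pgi1) and phosphofructokinase (pfk1), and none of these 4 genes was listed. Their distances from the nearest peak were 324.2 kb for hxk1, 37.4 kb for hxk2, 15.2 kb for pgi1 and 94.3 kb for pfk1. Of 10 glycolytic steps, 7 had a listed gene, and of 13 glycolytic genes looked up, 7 were listed. These 7 genes were selected on being listed, which fixes these counts from below. All 8 hexose transporter genes looked up (ght1 to ght8), which bring glucose into the cell, were absent. So were all 12 genes of side branches that were looked up, which included fbp1, the gluconeogenic fructose-1,6-bisphosphatase, the glycerol-3-phosphate dehydrogenase genes gpd1, gpd2 and gut2, and pda1, pdb1, lat1 and dld1 of the pyruvate dehydrogenase complex. The gut2 gene lay 0.408 kb from a peak, the nearest of these. Only 1.86% of all protein-coding genes were listed, so absence is the usual state of a gene. The absences given here therefore do not set these genes apart from most others.

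The peaks spanned nearly the whole of each gene and, in all but pyk1, ran on past its 3′ end. At least 90% of the listed gene lay inside the peak for 10 of 10 pathway genes, and for 29 of 54 other listed protein-coding genes that held the centre of their peak (53.7%). The peak passed the annotated 3′ end, where the mature RNA ends while the polymerase transcribes on before it terminates, in 9 of 10 pathway genes and in 36 of these 54 genes (66.7%). It passed the 5′ end by over 100 bp in 1 of 10 pathway genes, atd1, and in 6 of 54. Median coverage was 99.9% of the gene (lowest 92.4%, SD 2.85 over the 10 genes) for the pathway genes and 92.1% for the 54 other genes, which ran down to 9.56%. The pathway genes were also shorter, with a median listed length of 1620.5 bp against 2138 bp for the 54 others. Their median peak width was 1761.5 bp, against 1930.5 bp. These comparisons describe 1 list, and neither they nor the part of gene length in the coverage was tested.

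**Figure D1:**
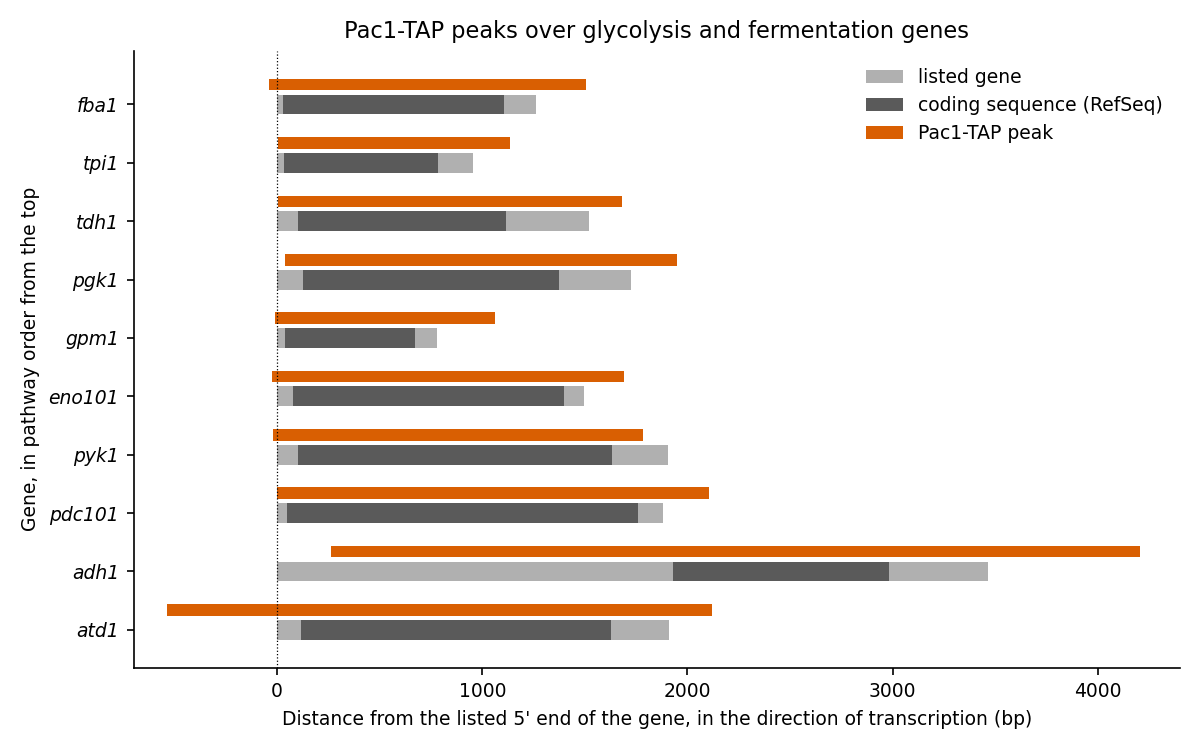
Position of each Pac1-TAP peak relative to its gene, in bp from the listed 5′ end in the direction of transcription, with genes in pathway order from the top. The orange bar is the peak, the light bar the gene as listed and the dark bar the RefSeq coding sequence, and the peak reaches past the 3′ end in every gene but pyk1.

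The fba1 gene (SPBC19C2.07) encodes fructose-bisphosphate aldolase, which cleaves the 6-carbon sugar and opens the listed stretch of the pathway. Its peak at chrII:1688296-1689839 in build ASM294v2, the build of all peak coordinates here, was 1544 bp wide and covered the whole gene, listed at 1688336 to 1689599 on the plus strand. It passed the 5′ end by 40 bp and the 3′ end by 240 bp. The p-value of 6.9984e-178 was the largest among the 10 peaks, although 28 listed peaks had a larger one.

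The tpi1 gene (SPCC24B10.21) encodes triosephosphate isomerase, which converts the triose phosphates into each other. Its peak at chrIII:939917-941048 was 1132 bp wide, with a combined p-value of 2.2439e-305 over both replicates. The peak began just inside the 5′ end (an overhang of -4 bp) and ran 179 bp past the 3′ end, over 99.6% of the gene. It also took in 243 bp, or 6.20%, of the gene downstream on the same strand, pog1, which encodes the mitochondrial DNA polymerase. The RefSeq bounds of pog1 do not reach the peak.

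The tdh1 gene (SPBC32F12.11) encodes glyceraldehyde-3-phosphate dehydrogenase, the step that makes NADH. Its peak at chrII:2807538-2809215 was 1678 bp wide, with p listed as 0, and covered 99.7% of the gene, with overhangs of -4 bp at the 5′ end and 164 bp at the 3′ end. The list also placed 3 other genes at this peak, each by its edge: SPBC32F12.17 on the opposite strand (29 bp, marked as dubious) and the RNA genes SPNCRNA.1550 (56 bp) and SPNCRNA.1551 (133 bp) on the same strand. Another gene for this enzyme, gpd3, was not listed and lay 45.6 kb from the nearest peak. The 2 proteins were 93.7% identical and the coding sequences 93.2%. As deposited, the list separates 2 genes that share much of their sequence.

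The shared sequence limits how far reads can tell these genes apart. The reads were 50 nt long, and 234 of 1408 stretches of 50 nt in tdh1 (16.6%) also occurred elsewhere in the genome. In gpd3 the share was 234 of 1891 (12.4%). The authors kept reads of at least 36 nt after trimming, and for stretches of 36 nt the shares were 20.8% in tdh1 and 15.5% in gpd3. For the other 9 pathway genes the share was 0% at both lengths. Among the unlisted transporter genes the share at 50 nt ran from 0% in ght2 and ght7 to 24.7% in ght8 and 29.6% in ght5. How reads that fit more than 1 place were handled was not tested. The longest identical run of the tdh1 and gpd3 coding sequences, 203 nt at positions 577 to 779 of both, is shown. No 50-nt read inside it can be assigned to either gene from its sequence. In tdh1 it lies at chrII:2808213-2808415 on the plus strand of RefSeq build ASM294v3.
tdh1 and gpd3: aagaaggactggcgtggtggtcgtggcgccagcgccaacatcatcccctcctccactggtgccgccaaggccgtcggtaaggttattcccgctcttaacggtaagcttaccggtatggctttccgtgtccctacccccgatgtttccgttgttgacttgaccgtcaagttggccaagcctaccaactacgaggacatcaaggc

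The pgk1 gene (SPBC14F5.04c) encodes phosphoglycerate kinase, the first step of the lower phase that makes ATP. Its peak at chrII:4157593-4159504 was 1912 bp wide with p listed as 0. It left out the first bases of the gene (a 5′ overhang of -39 bp), covered 97.7% of it and ran 228 bp past the 3′ end. No other gene was listed at the peak.

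The gpm1 gene (SPAC26F1.06) encodes phosphoglycerate mutase and is the shortest of the 10, at 781 bp. Its peak at chrI:5173583-5174652 was also the narrowest, at 1070 bp, with a combined p-value of 3.2063e-267. The gene was covered whole, with overhangs of 8 bp at the 5′ end and 281 bp at the 3′ end. The only other gene listed there, mug106, shared 28 bp with the peak.

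The eno101 gene (SPBC1815.01) encodes enolase, which makes phosphoenolpyruvate, the substrate of pyruvate kinase. Its peak at chrII:2201133-2202848 was 1716 bp wide with p listed as 0 and covered the whole gene, with overhangs of 26 bp at the 5′ end and 196 bp at the 3′ end. The paralog eno102 was not listed and lay 293.3 kb from the nearest peak. The enolase proteins were 66.1% identical.

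The pyk1 gene (SPAC4H3.10c) encodes pyruvate kinase, the last step of glycolysis and the other one that makes ATP in the lower phase. Its peak was the exception at the 3′ end. It lay at chrI:3844861-3846667, was 1807 bp wide with a combined p-value of 4.8529e-205, and stopped short of the 3′ end (an overhang of -118 bp), although it passed the 5′ end by 22 bp. The coding sequence was still inside the peak, and 93.8% of the listed gene was covered.

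The pdc101 gene (SPAC1F8.07c) encodes the pyruvate decarboxylase that starts fermentation. Its peak at chrI:101491-103595 was 2105 bp wide with a combined p-value of 1.9364e-187 and covered the whole gene, with overhangs of 1 bp at the 5′ end and 224 bp at the 3′ end. The other pyruvate decarboxylase genes looked up, pdc102, pdc201 and pdc202, were not listed and lay 237.1, 75.4 and 371.3 kb from the nearest peak.

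The adh1 gene (SPCC13B11.01) encodes the alcohol dehydrogenase that makes ethanol, and it had the widest peak of the 10. The peak at chrIII:1589689-1593633 was 3945 bp wide with p listed as 0, and it ran 744 bp past the 3′ end. The list gives a long adh1 transcript of 3463 bp, and the peak began inside its 5′ end (an overhang of -262 bp). RefSeq gives a gene of 1598 bp with the same 3′ end, and against that gene the peak passed the 5′ end by 1603 bp. The centre of the peak thus lay 503 bp toward the 3′ end from the centre of the listed gene, and toward the 5′ end from that of the RefSeq gene (an offset of -429.5 bp).

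The adh1 peak was the only one of the 10 with listed RNA genes on the opposite strand. Of these, adh1-antisense-1 (SPNCRNA.2001) had 3609 bp or 91.2% of its length inside the peak, and adh1-antisense-2 (SPNCRNA.2002) had 3545 bp or 91.0%. They overlapped 82.7% and 80.9% of the listed adh1 gene. The protein-coding gene SPCC13B11.02c, also on the opposite strand, had 3638 bp or 95.2% of its listed length inside the peak, but only 232 bp or 55.6% of the shorter gene that RefSeq gives. Another RNA gene on that strand, SPCC162.01c-antisense-1 (SPNCRNA.1208), shared 70 bp with the peak. Since the signal has no strand, binding over adh1 and over its antisense RNA genes cannot be told apart.

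The adh4 gene (SPAC5H10.06c), which encodes another alcohol dehydrogenase, was listed too, although it is not one of the 10 genes. Its peak at chrI:156018-158375 had p listed as 0, covered the whole gene, and passed the 5′ end by 68 bp and the 3′ end by 412 bp. With adh4, 4 of the 9 fermentation genes looked up were listed, and 11 of 22 genes of glycolysis and fermentation together. The share over all protein-coding genes was 1.86%. Of the 11, 10 were selected on being listed, which raises these counts, so they were not tested.

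The atd1 gene (SPAC9E9.09c) encodes an aldehyde dehydrogenase. Its peak at chrI:4453067-4455725 was 2659 bp wide with p listed as 0, covered the whole gene and ran 213 bp past the 3′ end. It was the only pathway gene whose peak passed the listed 5′ end by over 100 bp, at 538 bp. The RefSeq gene begins farther upstream, and against it the 5′ overhang was 68 bp, so this difference rests on which annotation is used. The peak also took in 303 bp, or 10.9%, of rad26 on the opposite strand, a checkpoint gene. The paralogs atd2 and atd3 were not listed and lay 171.2 and 103.0 kb from the nearest peak.

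Set side by side, 8 of the 10 peaks had a 5′ overhang between -39 and 40 bp, the exceptions being adh1 and atd1. The median 5′ overhang was 4.5 bp (SD 197.7) for the pathway genes and -43 bp for the 54 other genes that held their peak centre. The median 3′ overhang was 218.5 bp (SD 209.8) for the pathway genes, against 201.5 bp for the other genes, so the medians at this end were close. The peak centre lay toward the 3′ end in 8 of 10 pathway genes, all but pyk1 and atd1, and in 33 of 54 other genes (61.1%). With RefSeq bounds the count stayed at 8 of 10, but atd1 then joined these genes and adh1 left them. Measured from the coding sequence, the peaks passed the start codon side by 28 to 1670 bp and the stop codon side by 152 to 1222 bp, with all 10 coding sequences covered whole. The other listed genes nearest to the pathway genes' median overhangs were trx1, tif51, rpl22, psu1 and met26, at distances of 15.9 to 53.4 bp from it.

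**Figure D2:**
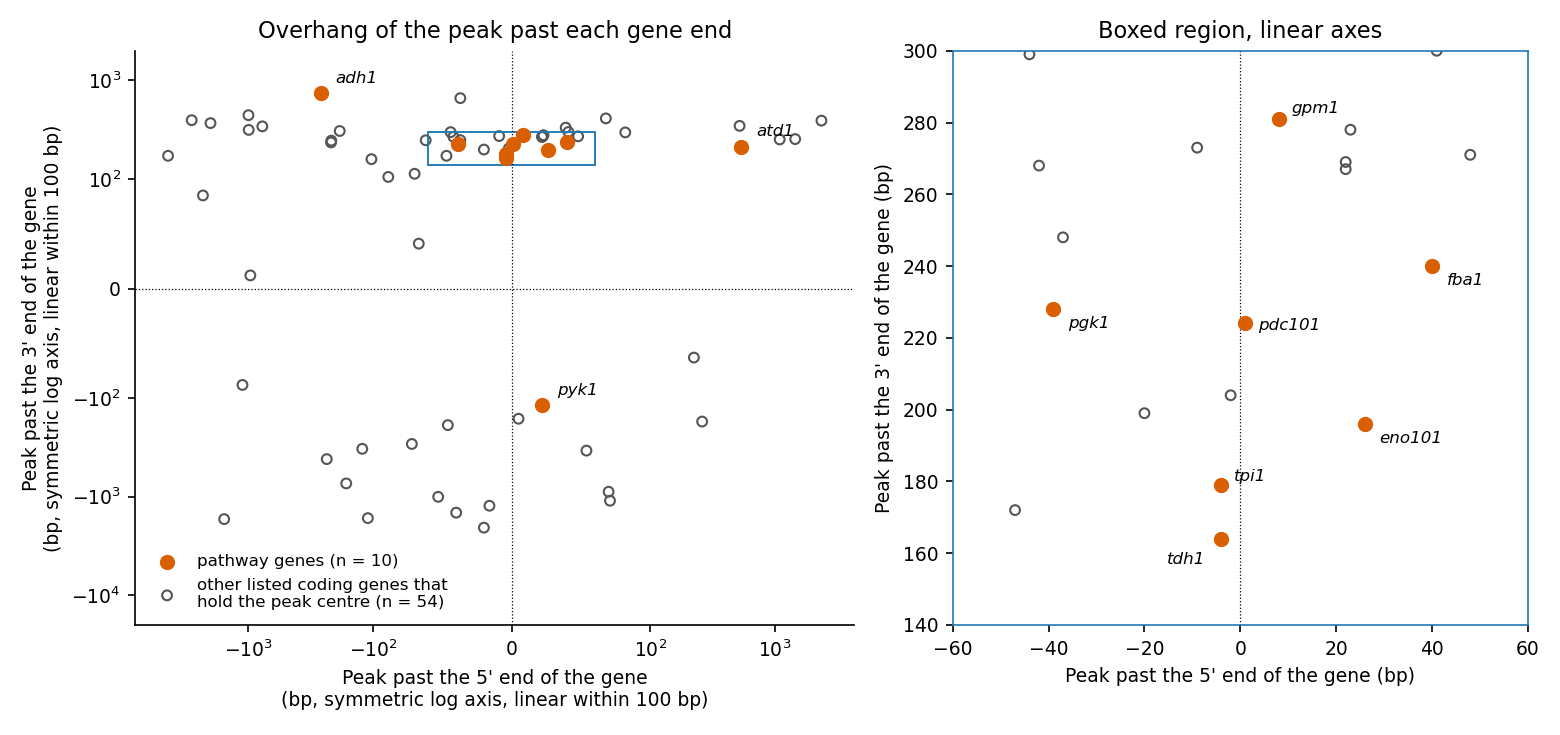
Overhang of the peak past the 5′ end (horizontal) and the 3′ end (vertical) of each gene in bp, with negative values where the peak stopped inside the gene. Filled points are the 10 pathway genes and open points the 54 other listed coding genes that hold their peak centre; the right panel magnifies the blue box, where 7 of the 10 pathway genes lie, while pyk1, adh1 and atd1 fall outside it.

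Antisense RNA genes depended on the annotation used. In the list, 1 of 10 pathway peaks, that of adh1, carried an RNA gene on the opposite strand, and 5 of 10 peaks carried another gene of any kind. Of the 54 other listed genes that held their peak centre, 17 (31.5%) were the only listed gene at their peak, against 5 of 10 here. Among all RefSeq genes, 9 of 10 peaks overlapped another gene and 8 an opposite-strand long non-coding RNA gene. No such RefSeq share is given for the other peaks, so these counts cannot be called particular to the pathway genes. Apart from adh1AS, which has the bounds of the listed adh1-antisense-1 under another name, RefSeq added 11 genes that the list does not pair with these peaks, all of them long non-coding RNA genes and 9 of them on the opposite strand. In RefSeq, pog1 no longer reached the tpi1 peak, and SPBC32F12.17 and adh1-antisense-2 had no entry at their peaks under those names. The peak over pgk1, for example, lay wholly within SPNCRNA.6456 (1912 bp shared), and the peak over pyk1 shared 1068 bp with SPNCRNA.3712. At tpi1 and eno101 neither source gave an RNA gene on the opposite strand.

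Codon choice is a property of the genes that the list does not use. The codon adaptation index measures how closely the codons of a gene follow those of a reference set, here 131 ribosomal protein genes, which are strongly expressed and use a narrow set of codons. All 10 pathway genes ranked in the top 5% of the 5113 coding sequences, but with the other listed genes as the reference set only 5 of 10 did. The values ran up to percentile 99.9 in gpm1 and down to 95.6 in atd1, with a median of 99.7. Among all 256 genes of the top 5%, 38 were listed (14.8%), against 1.86% of all protein-coding genes. The 38 include the 10 pathway genes, which were selected on being listed and so raise this share.

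High codon adaptation was not limited to listed genes of the pathway. The unlisted gpd3 stood at percentile 99.4, pfk1 at 98.5, hxk2 at 98.1, pgi1 at 97.7 and hxk1 at 93.6. The unlisted paralogs were spread wider, with pdc201 at 93.2, pdc202 at 85.2, eno102 at 69.4, atd3 at 68.4, atd2 at 68.1 and pdc102 at 46.9. The listed adh4 stood at 94.6, below 4 unlisted genes of glycolysis. The medians were 99.7 for the 11 listed genes of glycolysis and fermentation and 93.2 for the 11 unlisted ones. For the 54 other listed genes that held their peak centre the median was 94.8.

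**Figure D3:**
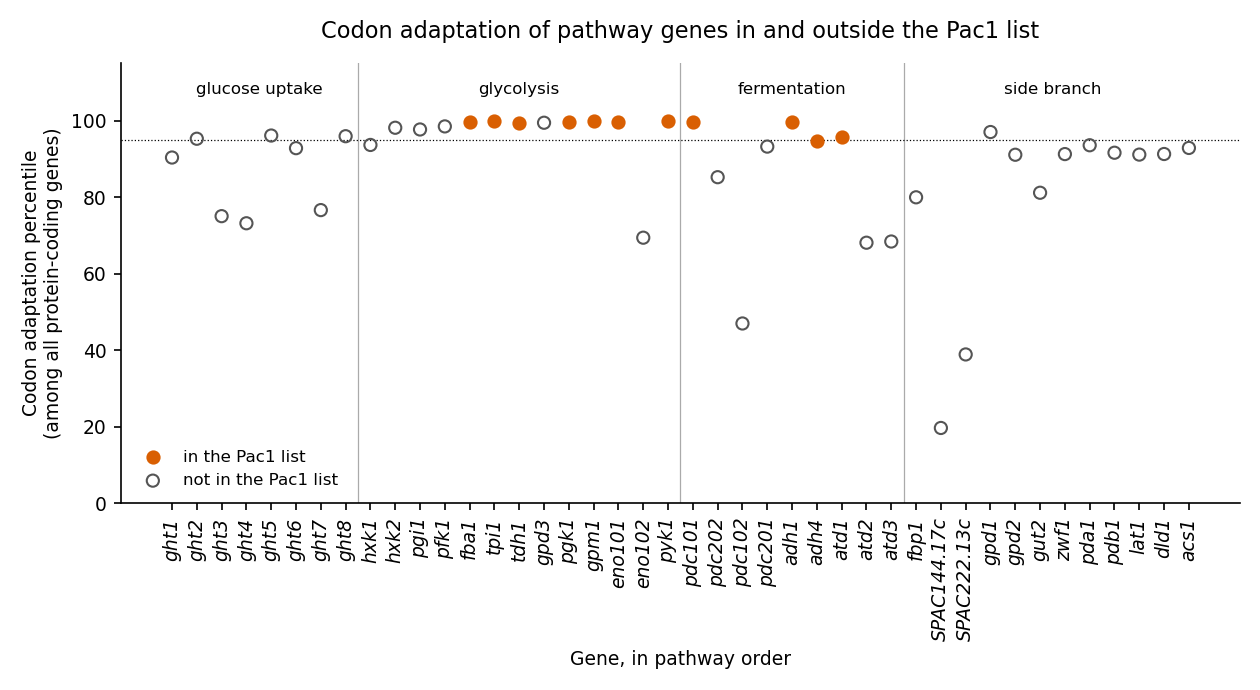
Codon adaptation percentile among 5113 protein-coding genes (vertical) for 42 genes of glucose uptake, glycolysis, fermentation and side branches in pathway order (horizontal), with a dotted line at the 95th percentile. Filled points are the 11 listed genes (the 10 described here and adh4) and open points the unlisted ones; the unlisted gpd3, at 99.4, lies among the listed lower-phase genes, while pfk1, hxk2 and pgi1 lie above only adh4 and atd1 of the listed genes.

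In all, 4 paralogs outside the 10 genes shared at least 40% of their protein sequence over at least 70% of the longer protein, and 0 of these 4 were listed. They were gpd3 and eno102, as given above, pdc102 (58.1% identical to pdc101) and atd2 (50.0% identical to atd1). At an identity of at least 30% there were 10 such paralogs, of which 0 were listed. Only 1.86% of all protein-coding genes were listed, so these absences do not set the paralogs apart from most other genes.

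Coding sequences of the pathway genes folded into more stable structures than most. The mean folding energy of 150-nt windows, predicted without any data from cells, ran from -46.65 kcal/mol in tdh1 to -35.32 kcal/mol in atd1. On a scale where 0 is the most stable coding sequence, the 10 genes had a median percentile of 0.589, with tdh1 at 0.0294, pgk1 at 0.0883, eno101 at 0.147 and atd1 at 6.11. The median of the 54 other listed genes was 20.6. The 11 unlisted genes of glycolysis and fermentation had a median of 6.23, from 0.108 in gpd3 to 31.4 in atd2, and the 11 listed ones 0.814. The unlisted upper-step genes stood at 2.43 (pfk1), 2.74 (hxk2), 4.74 (hxk1) and 6.23 (pgi1). The listed fba1 and pyk1 stood at 2.84 and 2.95, so low values were not limited to listed genes. The antisense strand of the 10 pathway coding sequences gave a median of 0.579. They were also rich in G and C, with a median GC percentile of 99.7 (94.2 to 99.95). That median was 88.0 for the 54 other listed genes and 89.5 for the 11 unlisted genes of glycolysis and fermentation. The part of GC content in the folding values was not tested.

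Long stems are of interest because RNase III enzymes cut double-stranded RNA. The longest predicted unbranched stem within 100 nt, with at most 2 unpaired bases in a row on a side, had 17 pairs in tpi1 and pyk1 and 29 pairs in adh1. A stem of at least 20 pairs was found in 7 of 10 pathway genes, and in 2759 of 5113 coding sequences (54.0%), so such stems were common. Among the unlisted genes looked up, the longest stem ran from 14 pairs in ght6 to 36 in dld1. It had 35 pairs in pfk1 and 30 in pgi1, so stems longer than that of adh1 occurred in unlisted genes. Of the 10 pathway genes, adh1 and pgk1 had the stems with the most pairs. These are shown beside that of pyk1, which with tpi1 had the fewest. Capitals mark bases that pair when the stretch is folded alone. All are coding sequence from RefSeq build ASM294v3, read 5′ to 3′ on the strand of the gene, at chrIII:1591934-1592010 (plus), chrII:4158963-4159035 (minus) and chrI:3845449-3845495 (minus).
adh1: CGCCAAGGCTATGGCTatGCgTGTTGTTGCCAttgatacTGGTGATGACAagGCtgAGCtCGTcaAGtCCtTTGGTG
pgk1: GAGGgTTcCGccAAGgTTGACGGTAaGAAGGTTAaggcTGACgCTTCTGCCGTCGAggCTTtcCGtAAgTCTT
pyk1: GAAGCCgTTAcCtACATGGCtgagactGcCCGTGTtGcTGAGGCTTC
The predicted energies were -28.7 kcal/mol for the adh1 stem, -25.5 kcal/mol for the pgk1 stem and -16.4 kcal/mol for the pyk1 stem. These are predictions from sequence, and cleavage was not measured in the list.

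Upstream of the genes, a core promoter motif that general transcription machinery binds (the TATA box) was searched by its letters, TATAAA, on the gene's strand in the 250 bases before the RefSeq start. They occurred in 5 of 10 pathway genes, tdh1, pgk1, gpm1, adh1 and atd1, against 1415 of 5113 genes (27.7%) and 16 of the 54 other listed genes (29.6%). In all 5 the motif began 32 to 41 bases before the start. Within 100 bases of the start the motif occurred in the same 5 pathway genes, in 13 of the 54 other listed genes (24.1%) and in 11.4% of all genes. With the motif nearest to the start beginning 30 to 45 bases before it, a window set after these positions were seen, the counts were 5 of 10 pathway genes, 8 of 54 other listed genes (14.8%) and 228 of 5113 genes (4.46%). On the other strand the motif (TTTATA) occurred in 1 of 10 pathway genes and in 27.4% of all genes. The shorter TATAA, which every TATAAA contains, occurred in 8 of 10 pathway genes and in 56.5% of all genes.

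The 5 windows are shown with the motif in capitals, because the peaks of 4 of these genes began upstream of it. The exception was gpm1, whose peak began downstream of the motif. Each peak has 1 pair of bounds with no error, and the pgk1 edge at 4159504 fell inside the window shown. How precisely an edge places binding was not tested, so this split describes the listed bounds only. Each is 30 bases from RefSeq build ASM294v3 on the strand of the gene, at chrII:2807545-2807574 (plus, tdh1), chrII:4159484-4159513 (minus, pgk1), chrI:5174669-5174698 (minus, gpm1), chrIII:1591239-1591268 (plus, adh1) and chrI:4455673-4455702 (minus, atd1). The tdh1, pgk1 and adh1 windows lie upstream of the RefSeq start but inside the longer gene that the list gives.
tdh1: gggatggaaaggTATAAAtagaggcaggcg
pgk1: gattaattggggTATAAAtatgaggccaag
gpm1: atgaacttcctaTATAAAggatggtagacc
adh1: cgcctcccatggTATAAAtagtgggtggtg
atd1: tatgatttttacTATAAAtattgaattcgc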

How the data were processed

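The authors used Trimmomatic for trimming and HISAT2 for mapping to ASM294v2, called peaks in each replicate against its input with MACS2 and kept those found in both with MSPC. Tool versions are not given in the sources used here. The deposited list holds peak bounds, gene bounds and 1 combined p-value per peak, listed as 0 for 34 of 88 peaks. Peak starts may count from 0, a shift of at most 1 bp. Depth is unknown.

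Genes were matched by name. Overhangs and coverage were computed from the listed bounds, with RefSeq ASM294v3 bounds as an alternative after comparing the builds (of 153 matched names, 144 shared a bound, the 10 genes among them). Sequence features came from the RefSeq genome with Biopython 1.88, ViennaRNA 2.7.2 (37 °C) and BLAST 2.17.0. The overhang, codon adaptation, stem, folding and shared-sequence steps were tested on simulated data. The motif and paralog searches were not. The 42 pathway genes came from a hand-written list. The genes and lists were chosen with earlier results of these data known. Genes named are the 10 genes, those listed at their peaks, the pathway list, paralogs and the 5 nearest overhangs. No test was made, since the list decided membership.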

Additional observations from a re-analysis of the deposited data

How the results depend on the processing

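Of 45 alternatives, 13 of them chosen after seeing the data, 3 moved a value past the margin used, which for medians was 1 SD over the genes. With all RefSeq genes in place of the listed ones, 9 of 10 peaks held another gene, against 5. With the other listed genes as the codon reference, the median codon adaptation percentile was 94.93, against 99.69, and 5 of 10 genes were in the top 5%. With TATAA in place of TATAAA, 8 of 10 genes held the motif, against 5. That margin is wide for the overhangs, since adh1 and atd1 enlarge the SD, so it says nothing of their stability. The median 5′ overhang was 34 bp with RefSeq bounds and 93.5 bp with coding bounds, against 4.5 bp, and the median 3′ overhang was 392.5 bp with coding bounds, against 218.5 bp. Without adh1 and atd1 the medians were 4.5 and 210.0 bp. At p of at most 1e-200, 8 of the 10 peaks remained. No paired analysis was possible because each peak carries 1 combined value and none per library. Depth could not be assessed, so whether the unlisted genes fell below a detection limit is unknown.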
